A study of Mus musculus with 6 samples.

Results

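The tubulin isotypes examined were 10 mouse genes, Tuba1a, Tuba1b, Tuba1c and Tuba4a for alpha-tubulin and Tubb2a, Tubb2b, Tubb3, Tubb4b, Tubb5 and Tubb6 for beta-tubulin. A probe set, the group of array probes that reports 1 transcript, was taken where the platform annotation gave 1 of these symbols alone, with the older name Tubb2c accepted for Tubb4b. Of the 10 genes, 8 had such a probe set, out of 18193 genes that had one on the array, and Tuba1b and Tuba1c had none. The 8 genes had 18 probe sets, of which 15 were bright enough to be tested and 3 were not.

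RNA came from NIH3T3 cells, an immortalised mouse fibroblast line, and all samples belonged to clone M, a single clone with multiple insertions of lacO, the bacterial operator bound by the lac repressor. In 3 tethered samples the insertion lay at the nuclear periphery, and in 3 untethered samples it lay centrally in the nucleus. Both groups were grown in DMEM with 10% FCS to about 80% confluency, and total RNA extracted with Trizol was labelled with biotin for Affymetrix arrays. The sources used here do not say how the insertion was moved. In each group the arrays carry the replicate numbers 1, 2 and 3. The labels say neither what a number stands for nor whether the arrays of a group came from separate cultures, so p-values measure the spread between these samples, which may be technical.

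Microtubules are hollow polymers of heterodimers of alpha- and beta-tubulin. Each subunit is encoded by several genes, the isotypes, whose proteins are much alike and differ most in the acidic tail that carries many of the modifications of the polymer. Fibroblasts use microtubules for transport, cell shape and the mitotic spindle, and cells adjust tubulin mRNA to the amount of free dimer through a decay pathway that acts on mRNAs under translation.

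Values are log2 of the deposited intensity, and sets of 3 values follow replicates 1, 2 and 3. The median intensity of the arrays ran from 482.4 to 490.9. All 10 fibroblast markers examined were above the brightness filter, a mean log2 intensity over the median of all probe sets (8.93), at mean log2 intensities of 10.13 to 14.55. Of 25 markers of neurons, epithelium, macrophages, endothelium, muscle and fat, 8 were above it, including 1 of 8 neuron markers. Of these 8, 0 passed the test in either comparison below. The brightest of them was Epcam, at 11.40, above the fibroblast markers Pdgfrb at 10.89 and Twist1 at 10.13. Over all probe sets above the filter, the arrays numbered 1 stood apart from the others. A principal component analysis gave a leading axis with 62.1% of the variance, which placed untethered 1 at -30.3 and tethered 1 at -38.0, with the other 4 arrays between 5.49 and 26.6. For that reason the tubulin genes are described both by group and by replicate number.

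Between tethered and untethered cells no tubulin probe set passed the test. By replicate number, 10 of 15 tubulin probe sets were called lower in the arrays numbered 1 of both groups, beside 9.09% of all probe sets tested. They belonged to 7 of the 8 genes, a count that dropped to 2 genes without untethered 3 or without tethered 3. Of the 10, Tubb3 and 1438622_x_at of Tubb4b passed the brightness filter only through the arrays numbered 2 and 3 and give no support to the count. Of the other 13 tested probe sets, 8 were called lower, in 6 of 7 genes. The decrease in the arrays numbered 1 was largest for Tubb6, at 3.70-fold, and Tubb4b, at 2.84-fold with its brightest probe set. It was smallest among the genes called for Tuba1a, at 1.31-fold. Tubb2b was the 1 gene that was not called in that comparison. Averaged over the brightest probe set of each of the 8 genes, the deviation from the gene's own mean was -0.60, 0.29 and 0.40 in untethered arrays and -0.68, 0.18 and 0.41 in tethered arrays, on the log2 scale. The family mean was thus low on 1 array of each group, and in the bulk RNA of a sample fewer cells that express a gene and less RNA per cell cannot be told apart.

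**Figure D1:**
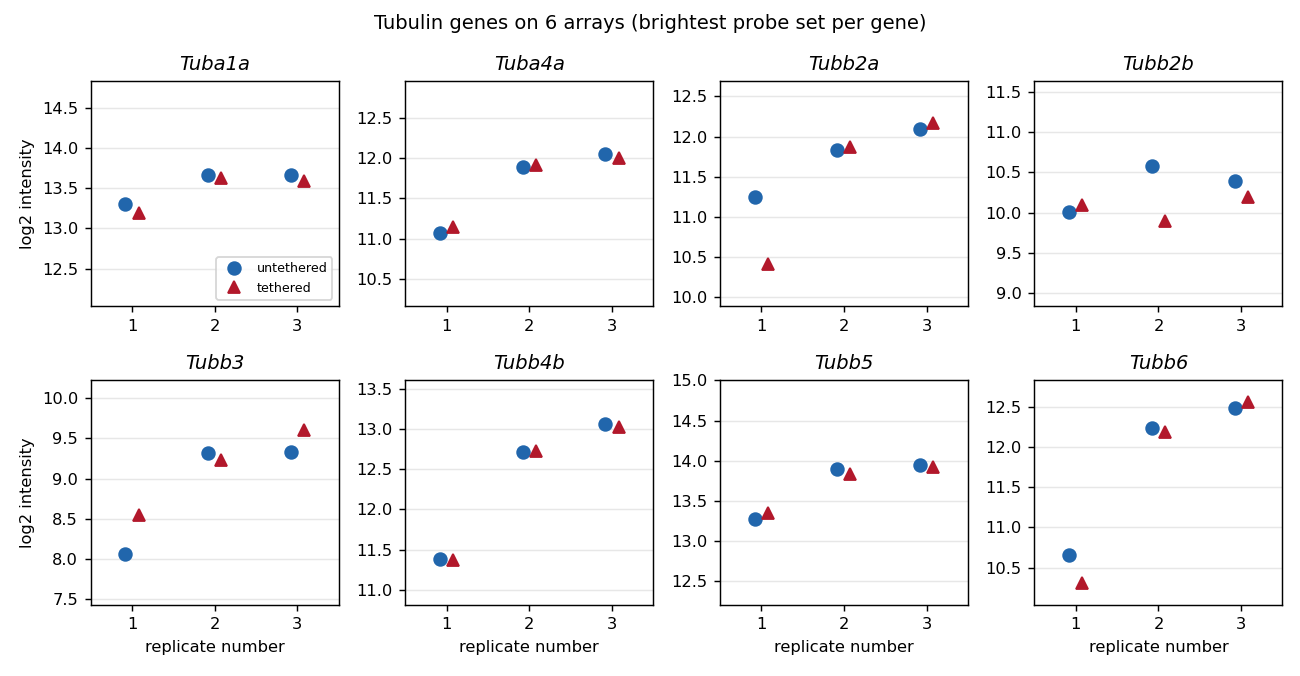
Log2 intensity of the brightest probe set of each of the 8 tubulin genes (y axis, the same span in every panel) against replicate number (x axis), with circles for untethered and triangles for tethered arrays, 1 point per array. Both arrays numbered 1 lie below the other 4 in every panel but that of Tubb2b, and the tethered and untethered points of a number lie farthest apart for Tubb2a at number 1 (-0.84), Tubb2b at number 2 (-0.68), Tubb3 at number 1 (0.49) and Tubb6 at number 1 (-0.34).

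Promoter sequences of 3 genes are shown because these genes span the range of the decrease, from Tubb4b, among the largest, through Tuba4a to Tuba1a, the smallest of those called. Each sequence runs from 250 bases before to 50 bases after the RefSeq gene start in assembly GRCm38.p6 and reads 5′ to 3′ along the gene, which lies on the minus strand in each case. Capitals mark every match, on either strand, to the letters of 3 promoter motifs. CCAAT is the motif of the factor NF-Y in many promoters of dividing cells. GGGCGG is the motif recognised by Sp1 and related factors. TATAAA is the core of the element bound by the general transcription machinery. No match of 1 of these motifs overlapped a match of another. The Tubb4b window lies at chr2:25224653-25224952, the Tuba4a window at chr1:75219245-75219544 and the Tuba1a window at chr15:98953452-98953751.
Tubb4b: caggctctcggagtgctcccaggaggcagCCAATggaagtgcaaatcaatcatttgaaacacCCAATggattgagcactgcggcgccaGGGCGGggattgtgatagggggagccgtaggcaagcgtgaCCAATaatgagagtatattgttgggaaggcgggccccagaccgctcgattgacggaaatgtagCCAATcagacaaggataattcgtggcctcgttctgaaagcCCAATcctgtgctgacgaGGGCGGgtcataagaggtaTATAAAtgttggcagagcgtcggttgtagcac
Tuba4a: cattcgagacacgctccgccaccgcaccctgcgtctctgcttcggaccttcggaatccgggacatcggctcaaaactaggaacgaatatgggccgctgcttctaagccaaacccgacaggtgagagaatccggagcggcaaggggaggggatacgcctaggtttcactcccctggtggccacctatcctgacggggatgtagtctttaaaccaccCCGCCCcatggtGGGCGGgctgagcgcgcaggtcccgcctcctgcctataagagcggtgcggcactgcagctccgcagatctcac
Tuba1a: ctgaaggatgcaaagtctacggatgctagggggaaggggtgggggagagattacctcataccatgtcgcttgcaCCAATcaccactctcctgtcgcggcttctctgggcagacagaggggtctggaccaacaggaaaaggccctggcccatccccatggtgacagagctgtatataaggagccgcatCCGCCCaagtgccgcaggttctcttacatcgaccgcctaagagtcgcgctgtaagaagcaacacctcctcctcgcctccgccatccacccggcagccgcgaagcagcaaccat

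The Tubb4b window held 5 CCAAT matches, 2 GGGCGG matches and 1 TATAAA match. Its TATAAA match lay after the annotated gene start, not upstream of it, and 1 of its GGGCGG matches spanned that start. In the Tuba4a window there were 0 CCAAT matches and 2 GGGCGG matches, and in the Tuba1a window 1 of each. Windows were read for 6 of the 8 measured genes, and not for Tubb2b and Tubb6. Windows on 1 chromosome were left out of this reading, so a gene not read may still have a window. CCAAT occurred in 4 of these 6 windows, with 2 matches for Tubb5 and 1 for Tubb3, and in 37.4% of all 32851 windows of that length in the table. GGGCGG occurred in 6 of 6 and in 35.7% of all windows, and TATAAA in 2 of 6, those of Tubb4b and Tubb2a, and in 13.6% of all windows. A match is a run of letters and was not tested as a binding site.

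The comparison of tethered with untethered cells is the one the labels state, and asks whether moving the insertion to the nuclear periphery goes with a change in expression. Probe sets were tested across the whole array with limma, a linear model that shares its estimate of variance across probe sets, and called at a Benjamini-Hochberg adjusted p under 0.05. Of 22517 probe sets tested, 0 were called (0%), 536 had an unadjusted p under 0.05, and every adjusted p was 0.9994 or above. Among the 15 tubulin probe sets 0 were called, 9 differences lay below 0 and 6 above. Their differences, tethered minus untethered, ran from -0.37 to 0.23 with a median of -0.01, beside a median of -0.02 over all probe sets tested. In 1 of the 15 the groups did not overlap, beside 8.15% of all probe sets tested. Without both arrays numbered 1, 0 probe sets were called, the median of the 15 was -0.01 and their median SE was 0.137 in place of 0.337. The group difference was then 0.0073 for Tubb6 with its brighter probe set, -0.01 for Tubb4b (1423642_at), 0.05 for Tubb2a, -0.44 for Tubb2b and 0.10 for Tubb3.

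Among the alpha-tubulins, Tuba1a, the isotype that predominates in developing neurons and is also made in fibroblasts, had log2 intensities of 13.31, 13.66 and 13.67 in untethered and 13.20, 13.62 and 13.59 in tethered arrays. The tethered array was slightly lower at each number, and the groups overlapped, with a difference of -0.07 (SE 0.158). The tethered mean was 13.47 ± 0.24 (SD, n = 3). The untethered mean was 13.55 ± 0.21 (SD, n = 3). Tuba4a encodes the alpha-tubulin that is made without the terminal tyrosine of other isotypes. Its brightest probe set, 1417374_at, read 11.07, 11.89 and 12.05 in untethered and 11.14, 11.92 and 12.01 in tethered arrays, a difference of 0.02 (SE 0.337) with full overlap.

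Of the beta-tubulins, Tubb5 encodes the most widely expressed isotype of dividing cells. Its probe set 1416256_a_at read 13.28, 13.90 and 13.94 in untethered and 13.35, 13.83 and 13.92 in tethered arrays, a difference of -0.0038 (SE 0.233). Tubb4b, another isotype made in most tissues and abundant in cilia, read 11.38, 12.72 and 13.06 in untethered and 11.37, 12.72 and 13.03 in tethered arrays with probe set 1423642_at. The tethered and untethered arrays of 1 number differed here by -0.01, 0.00 and -0.03, far less than arrays of different numbers. The group difference was -0.01, and its 95% interval, which contains the spread between numbers, ran from -1.46 to 1.43.

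Tubb6, an isotype whose excess destabilises microtubules, read 10.65, 12.24 and 12.49 in untethered and 10.31, 12.18 and 12.56 in tethered arrays with probe set 1416431_at. The difference was -0.11 (95% interval -1.91 to 1.69), with the low arrays those numbered 1 in both groups. Tubb3, best known as a marker of neurons, read 8.06, 9.32 and 9.33 in untethered and 8.55, 9.24 and 9.60 in tethered arrays. Its difference of 0.23 (SE 0.429) was the highest among the tubulin probe sets. At number 1 the tethered array was 0.49 above the untethered one, at number 2 the difference was -0.08, and at number 3 it was 0.28 above.

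Tubb2a and Tubb2b encode near-identical beta-tubulins that are abundant in brain, so their signals may be shared in part. Tubb2a read 11.25, 11.83 and 12.10 in untethered and 10.41, 11.87 and 12.17 in tethered arrays with probe set 1427347_s_at. Its difference of -0.24 (SE 0.49) came from 1 array, since within numbers the tethered array differed by -0.84, 0.04 and 0.07. Tubb2b read 10.01, 10.58 and 10.40 in untethered and 10.09, 9.90 and 10.20 in tethered arrays, a difference of -0.27 (SE 0.163). The highest array was untethered 2 and the lowest tethered 2, and the groups overlapped.

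The 1 probe set whose groups did not overlap was 1446353_at of Tubb6, which read 9.50, 9.56 and 9.58 in untethered and 9.63, 9.73 and 9.80 in tethered arrays. The difference of 0.18 (SE 0.0713, 95% interval 0.00 to 0.35) was higher in tethered cells at each of the 3 numbers, by 0.13, 0.17 and 0.22. Its unadjusted p from limma was 0.0490 and its adjusted p 0.9994. The brighter probe set of Tubb6 had a difference of -0.11, so the 2 probe sets of the gene did not share a direction.

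**Figure D2:**
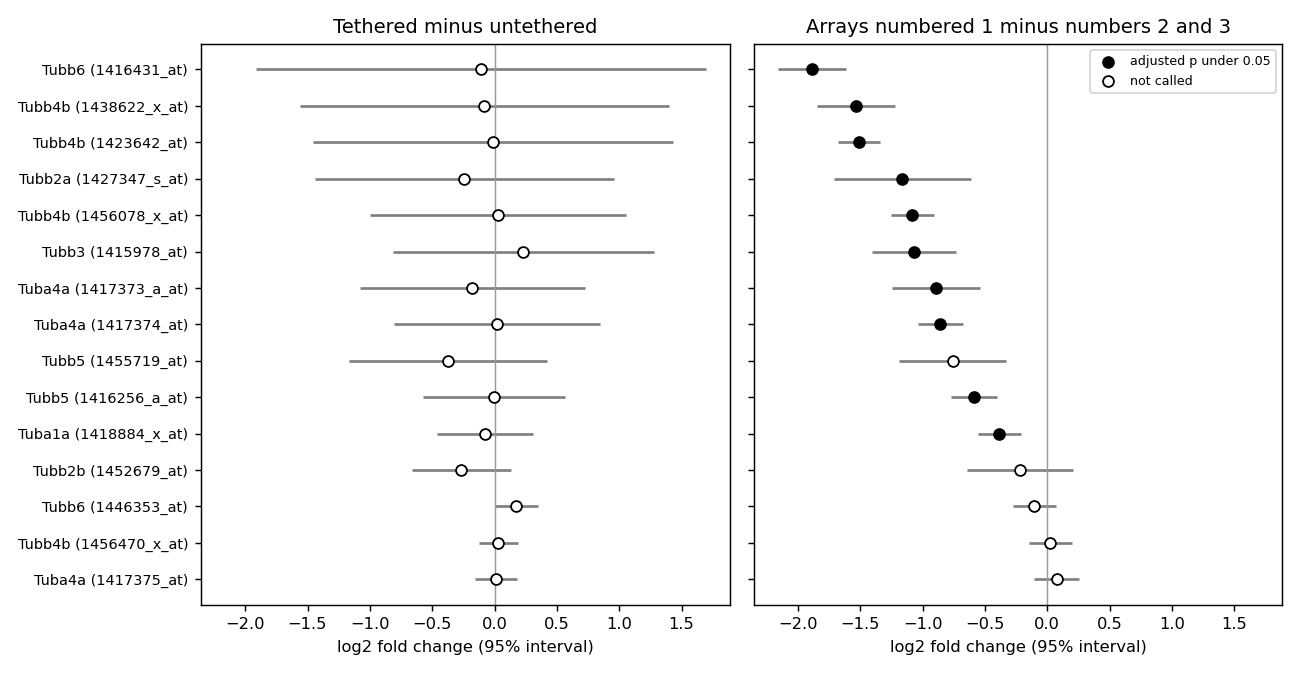
Log2 differences of the 15 tested tubulin probe sets with their 95% intervals from limma, for tethered minus untethered arrays in the left panel and for arrays numbered 1 minus those numbered 2 and 3 in the right panel, with filled points for an adjusted p under 0.05. All points of the left panel lie between -0.37 and 0.23, and 10 of 15 points of the right panel are filled, the lowest at -1.89.

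By replicate number, the 2 arrays numbered 1 were set against the 4 numbered 2 and 3, with the group kept in the model. This contrast was chosen because those arrays were already known to stand apart from the others. Its p-values thus describe these samples and are no independent test. Of the 15 tubulin probe sets 10 were called lower in the arrays numbered 1, beside 9.09% of all 22517 tested, and 0 were called higher, beside 1.49%. In 11 of the 15, both arrays numbered 1 lay below all others, beside 23.3% of all probe sets tested. Of the 15, 2 (Tubb3 and 1438622_x_at of Tubb4b) had a mean over the arrays numbered 1 under the brightness filter and passed it through the other arrays, so they had to be lower in number 1, and they give no support to the count. Of the other 13, 8 were called lower, in 6 of 7 genes. The median difference of the 15 was -0.86, and that of all probe sets tested was -0.02. With the 3 dim probe sets included the median over all 18 was -0.67. Without untethered 3 the count of tubulin probe sets called fell to 4 (1.47% of all probe sets tested called lower), and without tethered 3 to 2 of 14 tested (0.635%). In those fits 13 of 15 and 12 of 14 differences were below 0. Over the whole array, 2383 probe sets were called in either direction, 355 without untethered 3, 153 without tethered 3 and 1050 without tethered 1.

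The largest decrease was that of Tubb6. With the values given above, its arrays numbered 1 lay well below every other array, and the fitted difference was -1.89 (SE 0.106, 95% interval -2.16 to -1.61, limma adjusted p = 0.00405), a 3.70-fold decrease. For Tubb4b, 3 probe sets were called, with 1423642_at lower by 2.84-fold (-1.51, SE 0.0657, limma adjusted p = 0.0036). Tubb3 was 2.09-fold lower (-1.07, SE 0.131, limma adjusted p = 0.0152). It passed the brightness filter only through the arrays numbered 2 and 3, whose mean was 9.37, since both arrays numbered 1 were below that level, so its decrease is given as a description. The call of Tubb3 was lost without untethered 3, and without tethered 3 the probe set fell under the filter and was not tested. Tubb6 and 1423642_at of Tubb4b kept their calls under every alternative run, with differences of -2.06 to -1.71 and of -1.51 to -1.50 when 1 array was left out.

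Tubb2a was 2.24-fold lower in the arrays numbered 1 (-1.16, SE 0.212, limma adjusted p = 0.0364), and tethered 1, at 10.41, was its lowest array. Tubb5 was lower with probe set 1416256_a_at (-0.58, SE 0.0715, limma adjusted p = 0.0151). Both genes lost their calls without untethered 3 or without tethered 3, Tubb5 also without untethered 1, and Tubb2a also under quantile normalization or with no filter. Tubb2b did not pass, with a difference of -0.22 (SE 0.163, 95% interval -0.64 to 0.20, limma adjusted p = 0.476). Its arrays numbered 1 read 10.01 and 10.09 and those numbered 2 and 3 between 9.90 and 10.58, so the sets overlapped.

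Of the alpha-tubulins, Tuba4a fell by 1.81-fold with its brightest probe set (-0.86, SE 0.0695, limma adjusted p = 0.0067). The Tuba1a decrease of 1.31-fold was the smallest called (-0.39, SE 0.067, 95% interval -0.56 to -0.21, limma adjusted p = 0.033). Means of Tuba1a were 13.25 ± 0.08 (SD, n = 2) for number 1 and 13.64 ± 0.04 (SD, n = 4) for numbers 2 and 3. The Tuba4a call was lost without untethered 3 or tethered 3. That of Tuba1a was lost without untethered 1, tethered 1, untethered 3 or tethered 3, as well as under quantile normalization and with no filter on dim probe sets.

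Probe sets of 1 gene did not always share the pattern. For Tuba4a, 1417373_a_at read 10.29, 11.36 and 11.36 in untethered and 10.35, 10.84 and 11.28 in tethered arrays and was called lower by number (-0.89, SE 0.137, limma adjusted p = 0.0245), a call lost without untethered 1, untethered 3 or tethered 3. The third probe set, 1417375_at, lay between 9.94 and 10.10 on all 6 arrays. Its difference by number was 0.08 (95% interval -0.10 to 0.26, limma adjusted p = 0.557). Its sign was opposite to that of the other 2, and its interval included 0.

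Tubb4b had 6 probe sets. In addition to 1423642_at, 1456078_x_at was lower by number by 2.12-fold (-1.08, SE 0.068) and 1438622_x_at by 2.90-fold (-1.53, SE 0.121), both with no call without tethered 3, and with limma adjusted p of 0.00466 and 0.00646. The dimmer of these, 1438622_x_at, which passed the filter through the arrays numbered 2 and 3, read 8.76, 10.39 and 10.64 in untethered and 8.97, 10.11 and 10.46 in tethered arrays. The probe set 1456470_x_at stayed between 10.74 and 10.87 on every array, with a difference of 0.02 (95% interval -0.15 to 0.20). The remaining 2, 1456031_at and 1439416_x_at, were too dim to be tested, with values of 7.36 to 7.90 and of 6.09 to 6.35.

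For Tubb6 the dimmer probe set, 1446353_at, had a difference by number of -0.10 (SE 0.068, limma adjusted p = 0.415), against -1.89 for the brighter one. The second Tubb5 probe set, 1455719_at, read 11.27, 12.35 and 12.14 in untethered and 11.18, 11.53 and 11.92 in tethered arrays. Both arrays numbered 1 were its lowest, at -0.76 (SE 0.165), and it missed the threshold with an limma adjusted p of 0.0543. The second Tubb2a probe set, 1427838_at, was not tested and read 7.07, 7.19 and 7.51 in untethered and 7.32, 7.32 and 7.46 in tethered arrays.

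**Figure D3:**
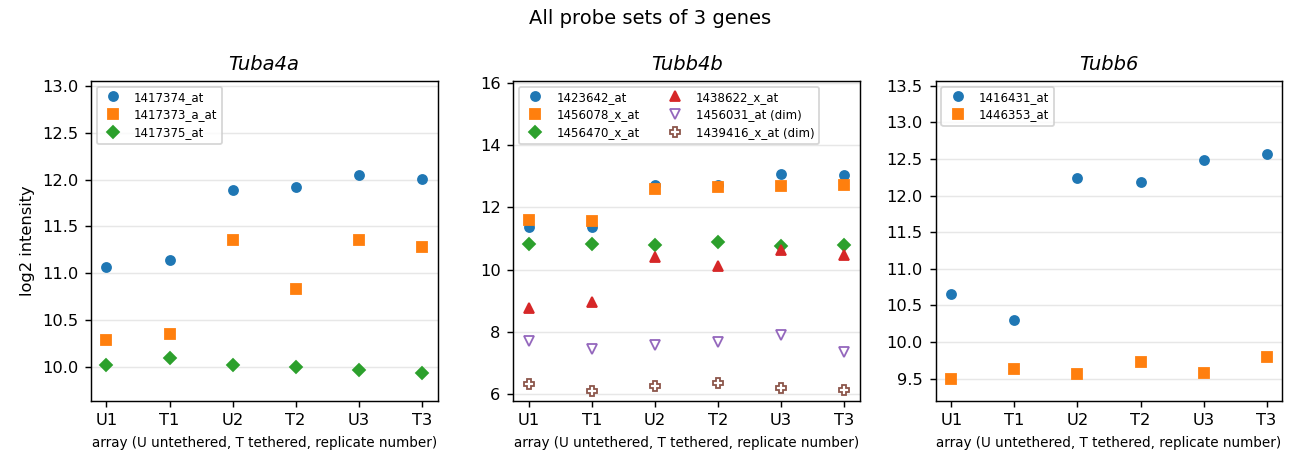
Log2 intensity (y axis, a separate scale in each panel) of every probe set of Tuba4a, Tubb4b and Tubb6 on the 6 arrays (x axis, U untethered and T tethered with the replicate number), with open symbols for probe sets too dim to be tested. In each gene 1 tested probe set is nearly level across arrays, 1417375_at, 1456470_x_at and 1446353_at, while the brightest is low on both arrays numbered 1.

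Whether the decrease in the arrays numbered 1 differed between the groups was tested with an interaction term, added after the values had been seen. Over all probe sets tested 0 were called, with a smallest limma adjusted p of 0.272 and 1188 at an unadjusted p under 0.05. For the tubulin probe sets the interaction ran from -0.89 to 0.52. The lowest was that of Tubb2a, whose array numbered 1 differed from the mean of the others by -1.61 in tethered cells and by -0.71 in untethered cells, on the log2 scale. The unadjusted p from limma was 0.0168 and the adjusted p 0.829.

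Other genes of tubulin and microtubule biology were read from 8 lists, with the brightest tested probe set for each gene. By group, 0 genes of these lists were called, as over the whole array. By number, 9.09% of all probe sets tested were called lower and 1.49% higher, and each count below is read beside these shares. The shares are over all probe sets tested, while a list takes the brightest of each gene. With the filter at the 75th percentile, 15.3% of the probe sets tested were called lower. By number, the other tubulins had 1 of 4 tested genes called, Tubg1, the gamma-tubulin that nucleates microtubules, with a difference of -1.21 (SE 0.116, limma adjusted p = 0.00951). The list's median was -0.04. Among subunits of the gamma-tubulin ring and other nucleation factors 1 of 9 was called lower, near the share of 9.09%, with a median of -0.17. The gene was Tubgcp2, at -0.47.

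Of 15 genes for prefoldin and the chaperonin CCT, which fold new tubulin and actin, 5 were called lower, beside 9.09% of all probe sets tested, and 0 higher, beside 1.49%, with a median of -0.32. They included Cct3 at -0.53, Cct6a at -0.49 and Cct8 at -0.46, subunits of the chaperonin, and its helper Pdcl3 at -0.39. The tubulin folding cofactors, which act after CCT to assemble the dimer, had 0 of 7 called in either direction and a median of 0.06. Of 7 genes tested for the decay of tubulin mRNA, 1 was called lower, near the share over the whole array, and the median was 0.00. The gene was Cnot11, at -0.55, a subunit of the deadenylase complex.

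Among enzymes that modify tubulin 1 of 14 was called lower, Ttll12 at -0.78, a member of the tyrosine ligase-like family, and 1 higher, Sirt2 at 0.51, a deacetylase that acts on alpha-tubulin among other proteins. Beside 9.09% called lower and 1.49% called higher of all probe sets tested, single genes do not set this list apart, and its median was -0.03. Stabilisers and plus-end proteins had 2 of 16 called lower, Mapre1 at -0.61, which encodes the plus-end protein EB1, and Map1a at -0.51, again near the share of 9.09%, with a median of -0.07. Destabilising and severing proteins had 3 of 10 called lower, beside the same share, with a median of -0.35. The 3 were the severing-family gene Fignl1 at -1.05 and the kinesins Kif18a at -0.96 and Kif18b at -0.42. Kif18a passed the brightness filter only through the arrays numbered 2 and 3 (mean 9.74, against 8.78 in number 1). Its call thus gives no support to that count.

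A pair of lists outside the microtubule system was read in the same way. Of 14 genes tested for actin and other cytoskeleton proteins 5 were called lower, beside 9.09% of all probe sets tested, with a median of -0.36. Among them were Tpm4 at -1.07, Actn1 at -0.68, the actin crosslinker Actn4 at -0.60 and the tropomyosin Tpm2 at -0.46. Of 12 proliferation genes tested, 12 were called lower, beside the same share, with a median of -1.53. Of these, Ccnb2 passed the brightness filter only through the arrays numbered 2 and 3 (mean 9.79, against 8.49 in number 1). The call of Ccnb2 thus gives no support to the count. The largest decrease in the list was that of Rrm2, a subunit of ribonucleotide reductase, at -2.44 (SE 0.0887). Bub1, Top2a and Plk1, genes of mitosis, lay at -1.39, -1.58 and -1.56. The mean deviation of that list was -0.85, 0.39 and 0.58 in untethered and -1.03, 0.33 and 0.57 in tethered arrays, low on the same arrays as the tubulin genes. Their part in the tubulin values was not tested.

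**Figure D4:**
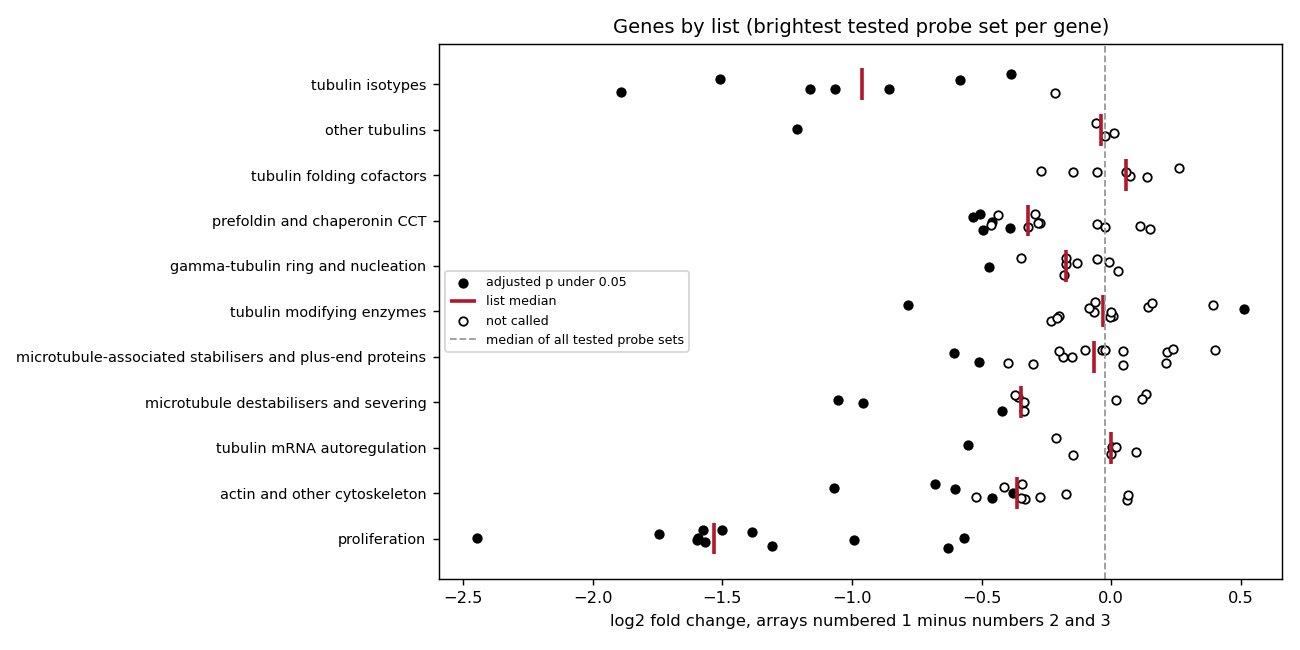
Log2 difference, arrays numbered 1 minus those numbered 2 and 3 (x axis), of each tested gene in the tubulin isotypes and 10 other lists (rows), with filled points for an limma adjusted p under 0.05, a red bar for the median of a list and a dashed line for the median of all tested probe sets. The tubulin isotypes and the proliferation genes, with medians of -0.96 over brightest probe sets and of -1.53, lie farthest to the left, and the folding cofactors straddle 0.

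Other measures were set beside the same arrays. Of the 10 fibroblast markers 5 were called lower in the arrays numbered 1, beside 9.09% of all probe sets tested, and 0 higher, beside 1.49%, with a median of -0.46. The difference between the 5′ and 3′ control probe sets of the transferrin receptor, which grows more negative as RNA is shortened, was -2.81, -3.07 and -1.52 in untethered and -2.09, -1.67 and -1.55 in tethered arrays on the log2 scale. That of beta-actin was -0.31, -0.56 and -0.15 and then -0.29, -0.10 and -0.12, and that of GAPDH lay between -0.06 and 0.10. The lowest value of all 3 controls belonged to untethered 2, and the arrays numbered 1 did not lie together apart from the rest. The part of RNA quality in the tubulin values was not tested.

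The genes most like the tubulin isotypes across the 6 arrays were found by Pearson correlation with the mean deviation of the 8 genes, among 5907 probe sets with a standard deviation of at least 0.2. Of these, 1111 had a correlation of 0.95 or more, and the order among them is a description of these 6 arrays. The top 5 were Nasp, a histone chaperone, at 0.9998, Ccnyl1, a cyclin Y-like gene, at 0.9998, Smc2, a condensin subunit, at 0.9995, Ywhae, a 14-3-3 protein, at 0.999 and Alyref, an mRNA export adaptor, at 0.999. Their differences by number were -1.01, -0.75, -1.49, -0.39 and -0.69.

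The opposite pattern was led by Pdia3, a disulfide isomerase of the endoplasmic reticulum, at -0.998, Ero1a, an oxidase of the same compartment, at -0.991, Usp54 at -0.989, Rad52 at -0.983 and Hsp90b1, the chaperone of the endoplasmic reticulum, at -0.982. These genes were higher in the arrays numbered 1. Ero1a read 11.88, 10.73 and 10.53 in untethered and 12.03, 10.71 and 10.68 in tethered arrays, a difference of 1.29 (SE 0.0755, limma adjusted p = 0.00433). Hsp90b1 differed by 0.66, Usp54 by 0.55, Pdia3 by 0.46 and Rad52 by 0.45. Rad52 read 8.83 to 8.89 on the arrays numbered 2 and 3, under the brightness filter. It passed only through the arrays numbered 1, so it had to be higher there.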

How the data were processed

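The authors deposited 1 intensity on a linear scale for each of 45101 probe sets on each of 6 arrays. Software for summarising and scaling was not given in the sources used here. Of the probe sets, 64 were controls, 34945 had 1 gene symbol, 932 several and 9160 none. Symbols were updated by gene identifier to the RefSeq table of GRCm38.p6, which held 99.4% of identifiers.

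Before taking log2, intensities under 16 were raised to 16. Probe sets with a mean log2 above the median (8.93) were tested, 22517 for 11846 genes. limma 3.58.1 in R 4.3.3 fitted group alone, then group and replicate number, two-sided, with Benjamini-Hochberg adjustment over all probe sets tested. The fits were tested on simulated data. No detection calls were used. Precision is limited by the number of arrays.

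Every member probe set was described. Those of Tuba1a (1418884_x_at), Tubb2b (1452679_at) and Tubb3 (1415978_at) were given by gene, each being the only qualifying probe set of its gene. For other lists, at most 4 genes with the smallest unadjusted p were named, and 5 genes per end of the pattern ranking. Members and lists were chosen with earlier results of these data known. Alternatives covered scaling, floor, filter, left-out arrays and model terms.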

Additional observations from a re-analysis of the deposited data

How the results depend on the processing

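By group, 0 probe sets were called under every alternative run (quantile normalization, median centring, a floor of 64, no filter, a filter at the 75th percentile, each array left out, both arrays numbered 1 left out and the replicate block). Of 190 values of single tubulin probe sets in that comparison 33 changed sign. Without both arrays numbered 1, Tuba4a read -0.01 (1417374_at) and -0.021 (1417375_at), Tubb2a 0.055 and Tubb6 0.0073. Quantile normalization gave 0.023 for Tubb4b 1423642_at and 0.017 for Tubb5 1416256_a_at, which read 0.0042 with median centring. With 1 array left out, the ranges were -0.19 to 0.063 for Tuba1a, -0.53 to 0.060, -0.28 to 0.29 and -0.03 to 0.050 for Tuba4a (1417373_a_at, 1417374_at and 1417375_at), -0.59 to 0.29 for Tubb2a and -0.19 to 0.52 for Tubb3. They were -0.51 to 0.49, -0.67 to 0.36 and -0.32 to 0.40 for Tubb4b (1423642_at, 1438622_x_at and 1456078_x_at), -0.22 to 0.17 for Tubb5 1416256_a_at and -0.68 to 0.58 for Tubb6 1416431_at.

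By number, 162 of 190 values kept their direction and side of the threshold, 21 lost and 5 gained a call and 2 changed sign. The median of the tubulin probe sets, -0.86, was -0.73 with quantile normalization, -0.67 with no filter and -0.96 over brightest probe sets, and ran from -0.92 to -0.71 with 1 array left out. In those fits the tubulin probe sets called ran from 2 to 11 and all probe sets called from 153 to 3367. Tubb2b ran from -0.48 to 0.041 and Tubb4b 1456470_x_at from -0.0075 to 0.057. The cause of these shifts was not tested.

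As a check of pairing, deviations from the group mean correlated between same-numbered arrays by 0.71, 0.07 and 0.71 for numbers 1, 2 and 3. Numbers 1 and 3 thus shared deviations between the groups, and number 2 hardly did. The deviations of a group sum to 0, so the values for the 3 numbers are not independent of each other. The main comparison did not take the numbers as pairs, and its wider group intervals come with that choice. With the replicate block, 0 probe sets were called by group, 1231 had an unadjusted p under 0.05 in place of 536, the members' median SE was 0.07 in place of 0.34, and the tubulin median stayed at -0.01.

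Precision rests on 6 arrays, and in most tubulin probe sets the spread between numbers sets the width of the group intervals.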

Other observations

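A further 5 probe sets carried a tubulin symbol beside a second symbol, in each case a pseudogene or predicted gene, and were left unassigned. Of these, 3 were bright enough to be tested, 1416128_at and 1448232_x_at (Gm6682 and Tuba1c) and 1423846_x_at (Gm5620 and Tuba1b). The first read 11.75, 12.74 and 12.62 in untethered and 11.40, 12.73 and 12.72 in tethered arrays. In all 3 the arrays numbered 1 were called lower, beside 9.09% of all probe sets tested, and 2 of the 3 carry the same pair of symbols. Their differences by number were -1.13 to -0.78 on the log2 scale. The differences by group were -0.11 to -0.08 and were not called. These signals cannot be credited to 1 of the 2 genes named.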
